A study of Mus musculus with 4 samples.

Results

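Microglia that were replicating or dividing were compared with the other responding microglia of the same brains, 1 day after ATV:4D9. The cells were chosen from the deposited annotation. Of the 8 mice given ATV:4D9, cells of deposited cluster 4 (10108 cells, the cycling cells) were set against cells of deposited cluster 2 (13526 cells), and UMIs, the counted mRNA molecules, were summed per mouse and cluster. Together these were 72.9% of the 32400 cells of these mice, and the series held 74758 cells of 20 mice. All 8 mice carried a homozygous knock-in of the human apical domain in the transferrin receptor (TfRmu/hu), which ATV:4D9 needs for its entry into the brain, and all were recorded as male on a C57BL/6J background. In 4 of them, written WT below (WT;TfRmu/hu), there was no further allele, and the other 4, written AppSAA (AppSAA;TfRmu/hu), were homozygous for the mutated App knock-in that deposits amyloid. Each received ATV:4D9 at 10 mg kg−1, a TREM2 antibody on an antibody transport vehicle with a silenced Fc part, and was sampled after 24 h. AppSAA mice of the series were 8 months old, and for WT mice a range of 2 to 8 months is stated. Every pool of cells held 1 mouse of each group. The labels disagree on the dissected tissue (cortex, or cortex and hippocampus) and on the sort (CD11b, or CD45 and CD11b).

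TREM2 is a lipid-sensing receptor of microglia that signals through the adaptor Tyrobp (DAP12) and Syk. Microglia renew themselves by division, and TREM2 signalling is known to support their survival and proliferation. A cell that divides first licenses its replication origins with MCM helicases, then makes deoxynucleotides and histones while it copies its DNA, and finally builds a spindle under the control of Cdk1 and cyclin B. Genes for the early steps are driven mainly by E2F factors, and genes for the late steps by complexes that act through CHR and CCAAT elements in their promoters. The comparison asks how far the cycling cells differ from non-cycling responders in anything other than the cycle.

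The 16 sums held 9153251 to 39867537 UMIs from 445 to 2186 cells. Levels are given as CPM, the counts of a gene normalised to the total count of the sum, and counts of mice refer to these values. The log2 differences and calls on this scale also take in TMM scaling, which sets a gene of equal CPM in both clusters at -0.052 in the median mouse (-0.079 to -0.031), so a difference of that size can be near 0 or of the other sign in the plain CPM. Because the deposited clusters were made from the same counts, the adjusted p-values between cluster 4 and cluster 2 (edgeR quasi-likelihood test with a term for each mouse, Benjamini-Hochberg) tell how the clusters are defined and cannot serve as separate evidence that they differ. Cycling cells also held more RNA. The median UMI count of a cell was 15323 in the lowest, 18821.8 in the median and 20377 in the highest mouse for cluster 4, and 13300, 15797.2 and 16939.5 for cluster 2. Cluster 4 was higher in 8 of 8 mice, by 0.25 on the log2 scale (SD 0.045; exact permutation of signs, two-sided p = 0.0078125, the smallest that 8 mice allow, adjusted p = 0.0117188 over 3 comparisons). The number of genes with a UMI was higher by 0.19 (log2) in 8 of 8 mice by the same exact test, and the mitochondrial percentage differed by -0.0075 (log2; higher in 4 of 8 mice, exact permutation p = 0.546875). A gene that makes up a smaller part of a larger pool can therefore still be present in as many copies per cell. Other cell types' markers aside, each list outside the cycle with more genes lower than higher in CPM also has counts in UMIs per cell. On that scale 73.3% of all tested genes were called higher and 4.95% lower, with a median of 0.26, and a list is to be read against these values. Single genes are given in CPM, and per cell only where that is said. Cells above 25000 UMIs made up 24.6% of cluster 4 and 16.1% of cluster 2 in the median mouse, no doublet caller was run, and among cells of 10000 to 25000 UMIs thinned to 10000 the counts of called genes were 3452 higher and 3632 lower. Of the barcodes, 543 occurred in more than 1 pool, and 346 of the compared cells carried such a barcode.

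The cell-cycle markers fit the name of cluster 4, and those of cluster 2 fit "non-cycling" only in part. To compare cells at equal depth, every cell was thinned to 5000 UMIs, which left 10013 cells of cluster 4, 13049 of cluster 2 and 796 of deposited cluster 0, taken as the homeostatic microglia of the same mice. In the unthinned sums, the list of 24 homeostatic genes took 2.35% of UMIs in cluster 4, 2.42% in cluster 2 and 3.83% in cluster 0 in the median mouse. After thinning, Mki67, a marker of proliferating cells, had a UMI in 55.0% of cluster 4 cells, 3.23% of cluster 2 cells and 1.88% of cluster 0 cells. Top2a, the topoisomerase that untangles sister chromatids, had one in 66.0%, 9.45% and 2.01%, and Rrm2, a subunit of ribonucleotide reductase, in 33.0%, 1.62% and 0.628%. The mitotic kinase Cdk1 had a UMI in 49.0%, 11.5% and 3.89%. Genes of the start of replication were detected in more of the cluster 2 cells. Pcna, the sliding clamp of the replication fork, was detected in 90.7% of cluster 4, 61.9% of cluster 2 and 26.6% of cluster 0, and the helicase subunit Mcm5 in 61.0%, 40.3% and 5.65%. Without thinning, Mki67 was seen in 76.0%, 8.56% and 2.27% of cells at median depths of 18007, 15375 and 7792 UMIs. The list of 86 replication licensing and fork genes took 0.801% of UMIs in the median mouse in cluster 4, 0.402% in cluster 2 and 0.110% in cluster 0. For the mitosis list these shares were 2.06%, 0.827% and 0.396%. Cluster 2 thus held replication-licensing and mitosis transcripts at levels between those of the cycling and the homeostatic cells. It is therefore called cluster 2 below rather than non-cycling.

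**Figure D1:**
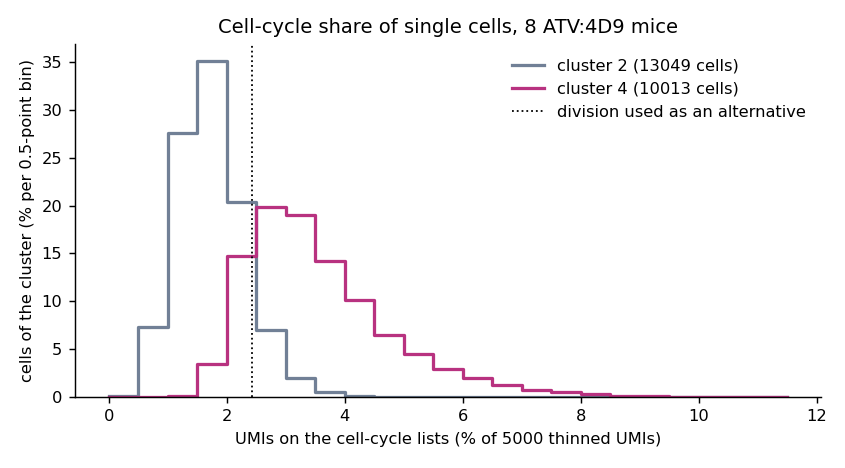
Share of the 5000 thinned UMIs of a cell that fell on the 4 cell-cycle lists (horizontal axis, %) against the percentage of cells of the cluster in each 0.5-point bin (vertical axis), for 13049 cells of cluster 2 and 10013 cells of cluster 4 of the 8 ATV:4D9 mice. The medians were 1.7% and 3.3%, the dotted line at 2.42% leaves 84.9% of cluster 4 and 11.6% of cluster 2 above it, and the curves overlap, with 7516 of 23062 cells within 0.5 points of the line.

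Promoters of 3 genes are shown as examples of the motifs that were counted. The stretches below are RefSeq sequence of build GRCm38.p6, written 5′ to 3′ on the strand of the gene. Capitals mark CCAAT boxes (CCAAT, or ATTGG on the other strand), CHR elements (TTTGAA) and, in Mcm5, an E2F element (TTTGGCGC, or GCGCCAAA on the other strand). CCAAT boxes are present in all of them, Mcm5 included. Mki67 (chr7:135716452-135716587, minus strand) and Cdk1 (chr10:69352913-69353140, minus strand) belong to the mitosis list, and Mcm5 (chr8:75109340-75109508, plus strand) to the replication list.
Mki67: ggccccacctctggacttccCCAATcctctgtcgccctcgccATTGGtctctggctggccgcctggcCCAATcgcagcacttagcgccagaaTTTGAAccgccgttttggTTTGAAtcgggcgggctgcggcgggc
Cdk1: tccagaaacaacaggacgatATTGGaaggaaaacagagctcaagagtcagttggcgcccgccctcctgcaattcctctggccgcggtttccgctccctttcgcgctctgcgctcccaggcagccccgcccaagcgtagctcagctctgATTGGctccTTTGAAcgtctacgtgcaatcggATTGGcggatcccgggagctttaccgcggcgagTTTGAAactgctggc
Mcm5: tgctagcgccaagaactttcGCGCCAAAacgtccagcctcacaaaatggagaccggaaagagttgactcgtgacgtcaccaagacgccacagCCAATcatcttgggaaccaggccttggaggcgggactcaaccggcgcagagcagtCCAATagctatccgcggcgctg
The 250 bases before the start were searched on both strands for CCAAT, for CHR as TTTGAA and for E2F as TTTCCCGC or TTTGGCGC. Of the mitosis list, 160 of 192 tested genes (83.3%) matched the promoter table, with 179 promoters. CCAAT was present in 62.6% of them against 33.9% of all 32851 promoters of the table, CHR in 27.4% against 16%, both together in 21.8% against 5.55%, and E2F in 7.82% against 1.3%. These shares are a description of the letters in the window. The same count is void for all called genes and for the replication list, of which fewer than 80% matched.

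Replication genes were higher in cluster 4 as a whole list, by moderate amounts. Among all 12677 genes tested, 32.7% (4150) were called higher and 35.9% (4550) lower, with a median log2 difference of -0.02. Of the called genes, 6474 had the same sign in 8 of 8 mice and 1702 did not overlap between the clusters. The clusters were made from the same counts, so neither trait of a single gene is separate evidence. All 86 genes of replication licensing and the fork were called higher, with a median of 0.99. Pcna ranged from 477 through a median of 541 to 597 CPM in cluster 4 and from 199 through 222 to 266 CPM in cluster 2. The values of the 8 mice did not overlap between the clusters, and the log2 difference was 1.19 ± 0.020 (SE, adjusted p = 1.4e-22). Mcm5 was at 177, 191 and 204 CPM (lowest, median, highest) against 97.6, 114 and 122 CPM, again without overlap (0.68 ± 0.020). At the ends of the list were Gen1, a nuclease that resolves recombination junctions (3.87), and Orc3, a subunit of the origin recognition complex (0.12, higher in 8 of 8 mice).

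Deoxynucleotide synthesis differed more. Of 10 genes 9 were higher and 1 lower, with a median of 1.59. Rrm2 was at 81.7, 117 and 144 CPM in cluster 4 and 1.8, 3.83 and 6.3 CPM in cluster 2, a log2 difference of 4.77 ± 0.070. The thymidine kinase Tk1 (2.44) and Dut, which removes dUTP (1.56), were also higher. Nme1, a nucleoside diphosphate kinase, was the member called lower (-0.10).

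Genes of mitosis and chromosome segregation made the largest difference of the 4 cycle lists. Of 192 genes 189 were higher and 2 lower, with a median of 2.32 (1.78 to 3.19 in the finer clusters described below). Mki67 (chromosome 7, 135689784 to 135716450) was at 240, 286 and 401 CPM in cluster 4 and 5.57, 8.42 and 11.5 CPM in cluster 2, a log2 difference of 5.11 ± 0.052 (adjusted p = 8.7e-26). Top2a was at 311, 367 and 458 against 19.2, 23.8 and 30.6 CPM (3.93 ± 0.041). Cdk1, the kinase that starts mitosis, was at 132, 160 and 175 against 24.7, 27.3 and 33.7 CPM (2.43 ± 0.027), and its partner Ccnb1 at 12.4, 23.4 and 33.8 against 1.06, 1.54 and 1.79 CPM (3.83 ± 0.083). In each of these genes every mouse had more in cluster 4, and the groups did not overlap. The 10 called genes with the largest positive difference at a mean of 10 CPM or more included the spindle genes Hmmr (6.05), Nusap1 (5.80), Prc1 (5.48) and Kif11 (5.26). The others were the kinetochore protein Cenpf (5.35), the kinase Plk1 (5.35), the ubiquitin-conjugating enzyme Ube2c (5.25), the cohesin acetyltransferase Esco2 (5.49), the DNA glycosylase Neil3 (5.27) and the histone gene Hist1h3c (5.16). The exceptions within the list were Pttg1, the securin that holds sister chromatids together (-0.50 ± 0.028, lower in 8 of 8 mice), and Ccnd1, the cyclin of the commitment step before replication (-0.15 ± 0.017, lower in 8 of 8).

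Most histone genes were higher, with exceptions. Of 60 tested, 51 were higher and 4 lower, with a median of 1.67. The variant H2afz was at 1370, 1601 and 1741 CPM in cluster 4 and 571, 624 and 668 in cluster 2 (1.28 ± 0.028). The replication-independent H3f3b was at 2113, 2596 and 3215 against 2379, 2495 and 3158 CPM, a log2 difference of -0.08 ± 0.032. It was lower in cluster 4 in the 4 WT mice (2235 against 2396, 2129 against 2593, 2113 against 2391 and 2679 against 2748 CPM) and higher in the 4 AppSAA mice (2615 against 2395, 2578 against 2379, 2985 against 2781 and 3215 against 3158 CPM), with a called interaction of genotype and cluster (0.23, adjusted p = 0.0028). Hist1h2bc was lower by the same test (-0.39 ± 0.045), as was Hist3h2a (-0.84 ± 0.077, 8 of 8 mice). When cells were divided by their share of cycle UMIs instead of by cluster, H3f3b and Hist1h2bc turned, to 0.51 for H3f3b and 0.24 for Hist1h2bc, and without histones in that share they were at 0.053 and -0.37. Hist3h2a stayed lower in both (-0.70 and -0.88). Histone genes are near-identical copies, most of their messages end without a poly(A) tail, and the kit primes on such tails, so differences between single histone genes are uncertain.

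**Figure D2:**
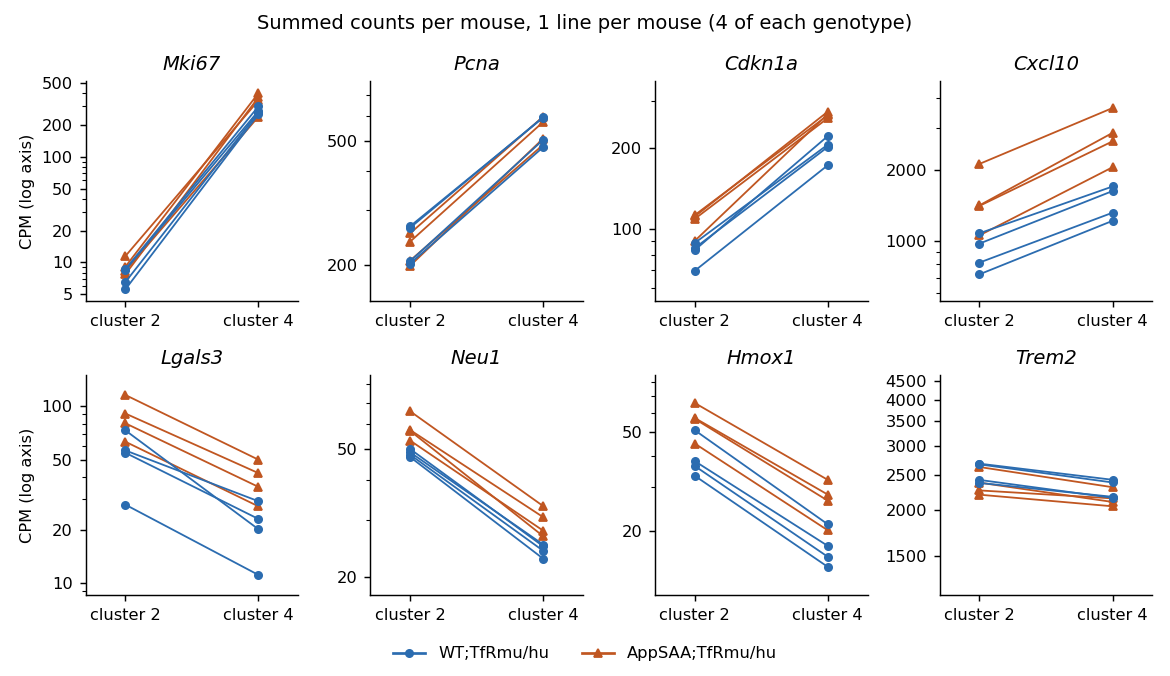
CPM on a log axis of 8 genes in cluster 2 and cluster 4, with 1 line per mouse (blue circles WT, orange triangles AppSAA, 4 mice each). Lines for Mki67, Pcna and Cdkn1a rise in all 8 mice without overlap between the clusters, Cxcl10 rises from a median of 1066 to 1872 CPM with overlap, Lgals3, Neu1 and Hmox1 go down in all 8, and Trem2 goes from a median of 2398 to 2168 CPM.

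Among the inhibitors of the cycle, 3 CDK inhibitors were higher in the cycling cells. Of 31 CDK inhibitors and p53 target genes 9 were higher and 13 lower, shares near the 32.7% and 35.9% of all genes, with a median of -0.08. That direction did not hold throughout, as the median was 0.02 in AppSAA mice and -0.11 in WT mice, and when cells were divided by their share of cycle UMIs 15 were higher and 6 lower, where 32.1% and 36.5% of all genes were (median 0.09, and -0.03 without histones in the share). Counted per cell, 20 were higher and 3 lower (median 0.20). Cdkn1a (p21; chromosome 17, 29090979 to 29100722), the p53-induced CDK inhibitor, was at 173, 240 and 274 CPM in cluster 4 and 69.7, 89.3 and 112 CPM in cluster 2. The groups did not overlap, and the log2 difference was 1.27 ± 0.029 (adjusted p = 4.9e-20). After thinning, Cdkn1a had a UMI in 41.2% of cluster 4 cells, 23% of cluster 2 cells and 11.3% of cluster 0 cells. Cdkn2a, the locus of p16 and Arf, was at 19.0, 26.3 and 30.9 against 2.99, 3.84 and 4.73 CPM (2.60 ± 0.053), and Cdkn2d (p19) at 28.3, 38.8 and 52.9 against 5.57, 6.59 and 7.07 CPM (2.48 ± 0.069). The antiproliferative Btg1 was lower, with 214, 234 and 318 against 271, 309 and 405 CPM (-0.44 ± 0.017), as was the quiescence factor Klf2 (-0.55 ± 0.060). Btg2 was lower as well (-0.25 ± 0.034), but its direction and that of Klf2 turned when cells were divided by their share of cycle UMIs instead of by cluster (0.24 and 0.19). With histones left out of that share, neither direction turned.

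Outside the cell cycle, most genes differed by little. Leaving out the cycle and inhibitor lists and the Reactome sets for cell cycle, replication and repair, 11925 genes remained, of which 3606 were higher and 4421 lower. Differences above 1.5-fold were found in 848 higher and 219 lower genes, and above 2-fold in 342 and 28. In UMIs per cell 9287 of all tested genes were called higher and 627 lower, and all 627 were among the 4550 called lower in CPM. Of those 4550 genes, 3122 had more UMIs per cell in cluster 4 than in cluster 2.

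The 15 largest positive differences outside these sets included genes with a known part in division that the lists did not hold, and others without one. Lockd, a long noncoding RNA downstream of Cdkn1b, was at 22.9, 28 and 43.9 CPM in cluster 4 and 0.643, 1.08 and 1.58 CPM in cluster 2 (4.81 ± 0.067). Known from division or recombination are Aunip, a partner of Aurora A (3.57), the transcription factor Mybl1 (2.71), the tubulin-complex gene Tedc1 (2.39), the recombination helicases Rad54b (1.98) and Rad54l (1.93), the mitotic histone kinase Haspin (1.83) and the centriole gene Cep128 (1.82). Dynlt1a (1.89), a dynein light chain with near-identical copies, is uncertain in its counting. For the rest no such role is well known. The unnamed transcripts Gm42047 (2.31, from 19.1 to 52.3 against 4.67 to 13.3 CPM) and 4930579G24Rik (1.74) and the transcript Eldr (1.69) are among them. Slc43a3, a transporter of purine bases (chromosome 2, 84936545 to 84958509), was at 70.7, 76.6 and 82.6 against 20.1, 21.4 and 24.0 CPM, without overlap (1.77 ± 0.028). Nanos1, an RNA-binding repressor (1.73), and the early lymphocyte activation antigen Cd69 (1.69 ± 0.173) also stood here, Cd69 with 3.17, 13.5 and 42.5 against 2.09, 3.45 and 11.7 CPM and overlapping groups.

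Making nucleotides and processing RNA were functions in which most genes were higher. Of 26 genes for one-carbon, serine, purine and pyrimidine synthesis 22 were higher and 1 lower (median 0.27). Ctps, CTP synthase, was at 35.9, 42.8 and 44.9 against 22.6, 25.1 and 28.1 CPM (0.67 ± 0.030), and the serine hydroxymethyltransferase Shmt1 at 21.5, 22.8 and 23.7 against 13.4, 13.9 and 15.6 CPM (0.65 ± 0.035). Neither gene overlapped between the clusters. The nucleoside transporter Slc29a1, listed with the Myc targets, was higher too, with 141, 157 and 195 against 73.5, 82.4 and 101 CPM (0.87 ± 0.023). Of 47 spliceosome and RNA-binding proteins 40 were higher and 3 lower (median 0.19), led by Hnrnpab (0.48 ± 0.020) and Snrpd1 (0.46). In cholesterol synthesis 12 of 23 were higher and 7 lower (median 0.11, with 0.18 in WT and 0.04 in AppSAA mice and -0.02 to 0.19 in single mice). The sterol carrier Stard4 was at 9.44, 11.3 and 12.9 against 4.71, 5.55 and 6.68 CPM (0.98 ± 0.048) and the isomerase Idi1 at 21.6, 25.2 and 29.8 against 11.2, 14.1 and 15.7 CPM (0.81 ± 0.046), while Mvd, an enzyme of the same pathway, was lower (-0.70). Of 19 iron-handling genes 7 were higher and 9 lower, not far from the shares of all genes, and 14 and 2 in UMIs per cell. The transferrin receptor Tfrc, the receptor that ATV binds, was at 21.4, 27.0 and 33.4 against 19.8, 26.4 and 33.0 CPM and was not called (0.06 ± 0.037, higher in 6 of 8 mice, adjusted p = 0.15).

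Lysosomal and plaque-response genes were lower in CPM with few exceptions. Of 38 genes for lysosome and acidification 37 were lower and 1 higher (median -0.21, from -0.25 to -0.19 in single mice). Neu1, the lysosomal sialidase (chromosome 17, 34931253 to 34937297), was at 22.7, 26.0 and 33.2 CPM in cluster 4 and 47.3, 51.7 and 65.7 CPM in cluster 2. The groups did not overlap, the log2 difference was -1.04 ± 0.024, and in UMIs per cell it was -0.76. Atp6v0c, a subunit of the proton pump, was at 856, 939 and 1147 against 1103, 1226 and 1496 CPM (-0.43 ± 0.015). The exception was Tfeb, the transcription factor of lysosome genes (0.12 ± 0.032). In UMIs per cell, 22 of the 38 genes were higher and 7 lower, with a median of 0.07. Among the promoters of this list, 31 of 38 genes (81.6%) matched, and the E-box CACGTG that Tfeb can bind was found in 15% of 40 promoters against 6.02% of all.

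The plaque-response (DAM) list, genes known to be induced in microglia at amyloid, had 40 of 42 genes lower and 2 higher (median -0.31). In UMIs per cell 10 were higher and 14 lower (median -0.03). Lgals3, galectin-3 (chromosome 14, 47373860 to 47386167), had the largest difference, with 11.1, 28.1 and 49.9 CPM in cluster 4 and 27.8, 68.1 and 116 CPM in cluster 2. It was lower in 8 of 8 mice, although the ranges overlapped between mice (-1.32 ± 0.058, and -1.03 in UMIs per cell). Apoe was at 431, 731 and 1836 against 509, 1020 and 1818 CPM (-0.39 ± 0.051, lower in 7 of 8), and Axl, a receptor for dying cells, was lower by -0.63 ± 0.035. The abundant protease Ctsd was at 7310, 7665 and 8463 against 8434, 8668 and 9403 CPM (-0.22 ± 0.015), but at 0.06 in UMIs per cell. Spp1, osteopontin, ranged from 10.5 through 20.6 to 56.3 CPM in cluster 4 and from 13.8 through 31.7 to 92.4 CPM in cluster 2. Its difference was -0.59 ± 0.184, with 2 of 8 mice higher in cluster 4. Ccl6 (0.09) and the adhesion molecule Cadm1 (0.05) were the members called higher.

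Some of the largest negative differences outside the cycle were in genes not yet described. Hmox1, heme oxygenase (chromosome 8, 75093618 to 75100593), was at 14.3, 20.6 and 32.1 CPM in cluster 4 and 33.3, 48.0 and 65.7 CPM in cluster 2, without overlap (-1.20 ± 0.030). Idh1, the cytosolic NADPH-producing isocitrate dehydrogenase, was at 5.47, 6.32 and 6.9 against 12.6, 13.9 and 15.1 CPM, without overlap (-1.19 ± 0.043). Fblim1, an adaptor of cell adhesions, ranged from 6.61 to 8.98 against 11.6 to 16.6 CPM, again without overlap (-0.84 ± 0.043). Mxd4, an antagonist of Myc (-0.82), the glucose-6-phosphate transporter family member Slc37a2 (-0.81), the chromatin factors Jarid2 (-0.79) and Kmt5b (-0.79) and the RNA helicase Ddx54 (-0.79) were also lower. In UMIs per cell each of these 8 genes was lower too, by between -0.92 and -0.51.

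**Figure D3:**
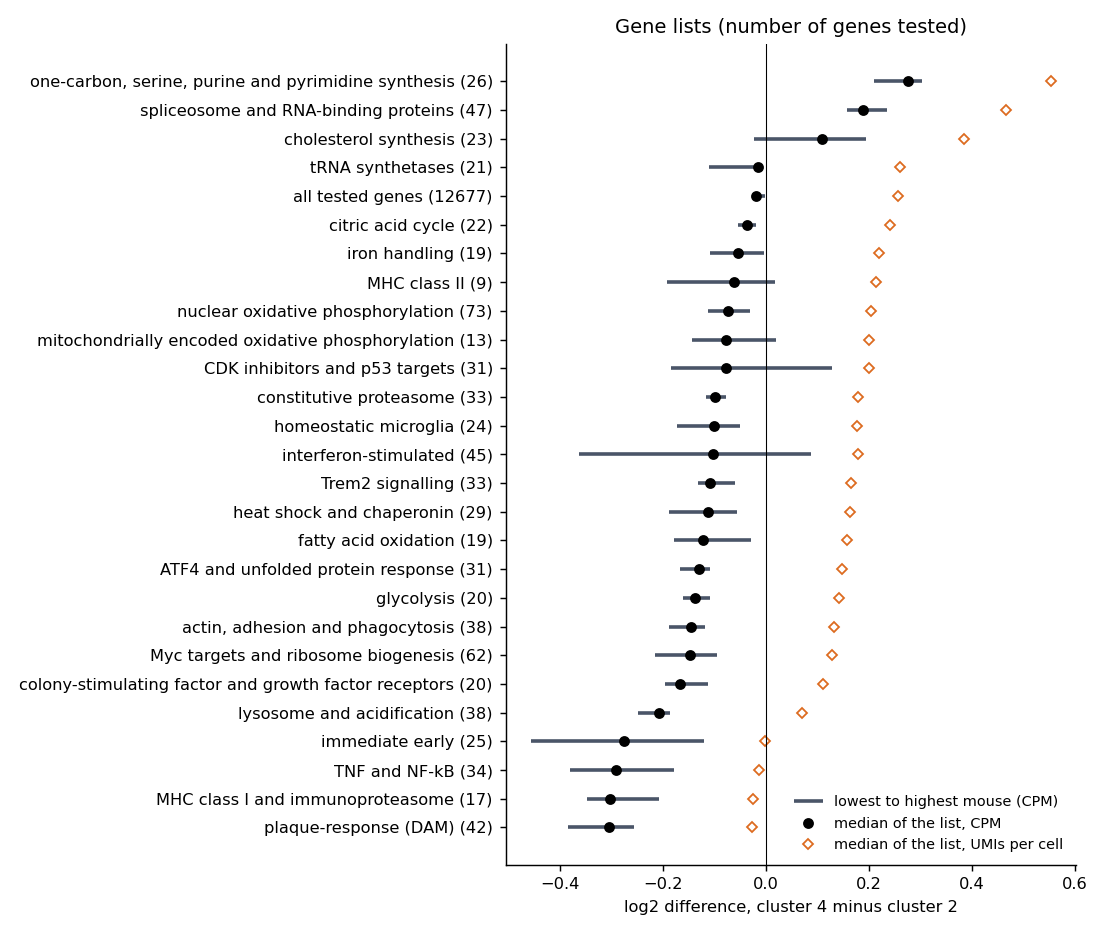
Median log2 difference, cluster 4 minus cluster 2, of the gene lists other than the cell-cycle and cell type marker lists (genes tested in brackets). Filled circles give the CPM scale with a line from the lowest to the highest of the 8 within-mouse medians, and the other marker gives UMIs per cell. One-carbon and nucleotide synthesis (0.27), spliceosome (0.19) and cholesterol synthesis (0.11) lie to the right in CPM, plaque-response (-0.31), MHC class I (-0.30) and TNF (-0.29) genes to the left, and on the per-cell scale the median of all tested genes is 0.26.

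On the per-cell scale, 4 of the lists in that plot, which leaves out the cell type markers, had a median below 0, the plaque-response (-0.03), MHC class I (-0.03), TNF (-0.01) and immediate early genes (-0.002).

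Energy metabolism and protein upkeep shifted by small amounts in CPM, several of them close to the shift that TMM scaling gives. Of 20 glycolysis genes 15 were lower and 1 higher (median -0.14), led by Aldoa, aldolase, with 353, 450 and 579 against 498, 614 and 793 CPM (-0.52 ± 0.016) and the hexokinase Hk2 (-0.43). Of 73 nuclear genes of oxidative phosphorylation 46 were lower and 11 higher (median -0.07), and of the 13 mitochondrially encoded ones 10 were lower and the other 3 not called (median -0.08). In UMIs per cell all 73 and all 13 were called higher, with medians of 0.20, below the 0.26 of all genes, and of the glycolysis genes 13 were higher and 4 lower (median 0.14). The citric acid cycle had 5 of 22 higher and 9 lower (22.7% and 40.9%, where 32.7% and 35.9% of all genes were, median -0.04). Summed, the list took 0.1663% of UMIs in cluster 4 and 0.1661% in cluster 2 in the median mouse. This share was higher in cluster 4 in 7 of 8 mice. Fh1, fumarase, was at 0.28 and Suclg1, a succinyl-CoA ligase subunit, at -0.45. Fatty acid oxidation had 12 of 19 lower and 1 higher (median -0.12). Per cell these became 20 higher and 1 lower for the citric acid cycle (median 0.24) and 11 and 2 for fatty acid oxidation (median 0.16). Its acyl-CoA dehydrogenases went apart. Acadl was at 90.3, 101 and 120 against 56.8, 66.0 and 72.1 CPM (0.57 ± 0.024), and Acads at 39.4, 44.5 and 50.2 against 57.6, 64.6 and 76.1 CPM (-0.60 ± 0.021), both without overlap.

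Myc targets and ribosome biogenesis had 43 of 62 lower and 9 higher (median -0.15), and Myc itself was at 31.5, 37.6 and 44.4 against 33.2, 42.4 and 49.7 CPM (-0.20 ± 0.030, lower in 8 of 8 mice). The tRNA synthetases had 10 of 21 lower and 4 higher. Their median of -0.01 was -0.10 in AppSAA mice and -0.11 in depth-matched cells, and -0.11 to -0.02 in single mice. Of the ATF4 and unfolded protein response genes 21 of 31 were lower and 4 higher (median -0.13), with the endoplasmic chaperone Hspa5 at 1422, 1825 and 2244 against 1757, 2197 and 2624 CPM (-0.30 ± 0.014). Heat shock and chaperonin genes had 18 of 29 lower and 7 higher (median -0.11). Summed, they took 0.884% of UMIs in cluster 4 and 0.875% in cluster 2 in the median mouse. This share was higher in cluster 4 in 7 of 8 mice. Hsp90aa1, the inducible HSP90, was among the genes called higher, with 485, 671 and 760 against 352, 475 and 545 CPM (0.43 ± 0.018). The co-chaperone Bag3 was lower (-0.77). The constitutive proteasome had 23 of 33 lower and 5 higher (median -0.10). Per cell, the counts were 41 higher and 4 lower for Myc targets and ribosome biogenesis (median 0.13), 19 and 4 for the ATF4 list (0.15) and 22 and 3 for heat shock genes (0.16). All 33 proteasome genes were then called higher (0.18), as were 18 of the tRNA synthetases with the rest not called (0.26). The median of the tRNA synthetases was that of all genes, and the other 4 medians were below it.

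Inflammatory and antigen-presentation genes were mostly lower in CPM, and interferon genes went both ways. Of 34 TNF and NF-kB genes 28 were lower and the other 6 not called (median -0.29). By UMIs per cell 7 were higher and 7 lower (median -0.01). When cells were divided by their share of cycle UMIs 9 were higher and 16 lower (median -0.06, and -0.17 without histones in the share). The list includes Il1rn, the antagonist of the interleukin 1 receptor, at 0.696, 1.64 and 4.81 against 1.22, 3.5 and 11.4 CPM (-1.30 ± 0.088). Nlrc5, the activator of MHC class I genes, was at 0.15 (adjusted p = 0.057), while 13 of 17 MHC class I and immunoproteasome genes were lower and 3 higher (median -0.30), and 7 lower and 6 higher per cell. H2-T23, a nonclassical class I molecule, was at 90.7, 125 and 164 against 133, 183 and 259 CPM (-0.62 ± 0.018). Of 9 class II genes 3 were higher and 4 lower, near the shares of all genes, among them H2-Eb1 (0.52) and the invariant chain Cd74 (-0.29 ± 0.038), while per cell 7 were higher and the rest not called. Of 45 interferon-stimulated genes 8 were higher and 24 lower (median -0.10), with medians of -0.22 in WT and -0.02 in AppSAA mice and of -0.36 to 0.09 in single mice. The per-cell counts were 29 higher and 7 lower (median 0.18). Summed, the list took 0.626% of UMIs in cluster 4 and 0.614% in cluster 2 in the median mouse. This share was higher in cluster 4 in 6 of 8 mice. The chemokine Cxcl10 (chromosome 5, 92346638 to 92348889) was at 1216, 1872 and 3640 CPM in cluster 4 and 723, 1066 and 2114 CPM in cluster 2 (0.76 ± 0.030), and the antiviral Rsad2 at 9.75, 32.6 and 62.6 against 7.17, 18.2 and 33.3 CPM (0.85 ± 0.061). Both were higher in 8 of 8 mice although the ranges overlapped. Slfn5, an interferon-induced Schlafen protein, was at 5.26, 12.3 and 28.3 against 17.2, 37.8 and 76.8 CPM (-1.56 ± 0.068), the largest negative difference among the named genes. The restriction factor Ifitm3 was at 104, 325 and 552 against 204, 529 and 882 CPM (-0.80 ± 0.038), and the chemokines Ccl5 (-1.38 ± 0.157) and Cxcl13 (-1.17 ± 0.132) were lower in 8 of 8 mice. Of 25 immediate early genes, which dissociation of tissue is known to induce, 19 were lower and 1 higher (median -0.28), and 6 lower and 8 higher per cell. The median in CPM was 0.19 when cells were divided by their share of cycle UMIs, and -0.11 when histones were left out of the share.

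The receptor that ATV:4D9 engages was slightly lower in CPM and not in UMIs per cell. Trem2 was at 2049, 2168 and 2421 CPM in cluster 4 and 2204, 2398 and 2680 CPM in cluster 2. It was lower in 8 of 8 mice, with overlapping ranges (-0.19 ± 0.014), and by UMIs per cell it was higher (0.09). Tyrobp was at 2676, 2923 and 3309 against 3133, 3335 and 3774 CPM (-0.26 ± 0.014, and 0.02 per cell, not called). Of 33 genes of TREM2 signalling 20 were lower and 7 higher (median -0.11), but per cell 28 were called higher and the other 5 not called (median 0.16). The adaptor Dok3 (0.25) and Rictor, a core part of mTORC2 (0.20), had the largest positive differences. Of 20 colony-stimulating factor and growth factor receptors 13 were lower and 3 higher (2 and 13 per cell), with Igf1r at 0.45 ± 0.028, the interferon gamma receptor chain Ifngr2 at -0.43 and Csf1r, the receptor that microglia need to survive, at -0.10 ± 0.014. Actin, adhesion and phagocytosis genes had 28 of 38 lower and 7 higher (4 and 25 per cell; median -0.15 in CPM), with the intermediate filament gene Vim at 0.56 ± 0.080. Homeostatic microglial genes had 17 of 24 lower and 5 higher (median -0.10), while in UMIs per cell all 24 were called higher (median 0.18). Fcrls was higher in 8 of 8 mice, with 848, 1372 and 1624 against 737, 1196 and 1429 CPM (0.17 ± 0.014), the chemokine receptor Cx3cr1 was lower (-0.21 ± 0.014), and P2ry12 was near 0 (-0.05 ± 0.017, 5 of 8 mice higher in plain CPM). All 8 microglia markers were called lower in CPM (median -0.13) and 7 of them higher in UMIs per cell (median 0.15). Together they took 1.44% of UMIs in the median mouse in cluster 4 and 1.55% in cluster 2.

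Cluster 4 was not uniform. In the finer deposited clustering 6935 of its cells were in finer cluster 4 and 2648 in finer cluster 7, with 298 of the rest in finer cluster 8. Of the cluster 2 cells, 11299 were in finer cluster 1 and 1081 in finer cluster 4. Those 1081 cells stayed in cluster 2 in the comparisons below, where finer cluster 4 means only its cells within cluster 4. The finer clusters were made from the same counts as well. Calls against cluster 2 or between the finer clusters therefore tell how they are defined and are not separate evidence. Against cluster 2, finer cluster 4 had 30.4% of 12260 genes higher and 33.4% lower, and finer cluster 7 had 33.3% of 11790 higher and 37% lower. Replication genes differed from cluster 2 by about the same median in both, 0.99 and 0.93. Mitosis genes were at 1.78 and 3.19, and histones at 0.56 and 2.75. Mcm5 was at 0.78 in finer cluster 4 and 0.46 in finer cluster 7, whereas Ccnb1 was at 1.75 and 5.27 and Plk1 at 2.76 and 6.88. Ung, the glycosylase that removes uracil from new DNA, was at 1.15 in finer cluster 4 and -0.87 in finer cluster 7. Mitosis and histone transcripts were thus higher in finer cluster 7, while replication transcripts were in the median near the level of finer cluster 4. Single replication genes went both ways, with 28 of 86 higher and 39 lower in finer cluster 7 than in finer cluster 4. Of 10 deoxynucleotide synthesis genes, 6 were higher and 3 lower in finer cluster 7 than in finer cluster 4.

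The inhibitors and several non-cycle lists followed the same division. Comparing finer cluster 7 with finer cluster 4 directly, 25.1% of 11426 genes were higher and 25.1% lower. As this split was made from the same counts, the numbers of genes below describe it and are not separate evidence. Cdkn1a was at 0.34 in finer cluster 4 and 2.35 in finer cluster 7 against cluster 2, and Cdkn2d at 0.98 and 3.80. Of 45 interferon-stimulated genes 43 were higher in finer cluster 7 and the rest not called (median difference 0.72), so that against cluster 2 their median was -0.42 in finer cluster 4 and 0.24 in finer cluster 7. Cd69 was at 0.18 and 2.65, Vim at -0.57 and 1.69, and the adhesion receptor Cd44 at -0.25 and 1.52. Myc targets and ribosome biogenesis went the other way, with 50 of 62 lower and 1 higher in finer cluster 7, as did the homeostatic list, with 21 of 24 lower and the rest not called. Plaque-response genes had medians of -0.32 and -0.30 against cluster 2, but single members went both ways between the finer clusters, with 15 of 40 higher and 13 lower in finer cluster 7. Lysosome genes were at -0.20 and -0.25, with 22 of 38 lower in finer cluster 7 and 2 higher.

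**Figure D4:**
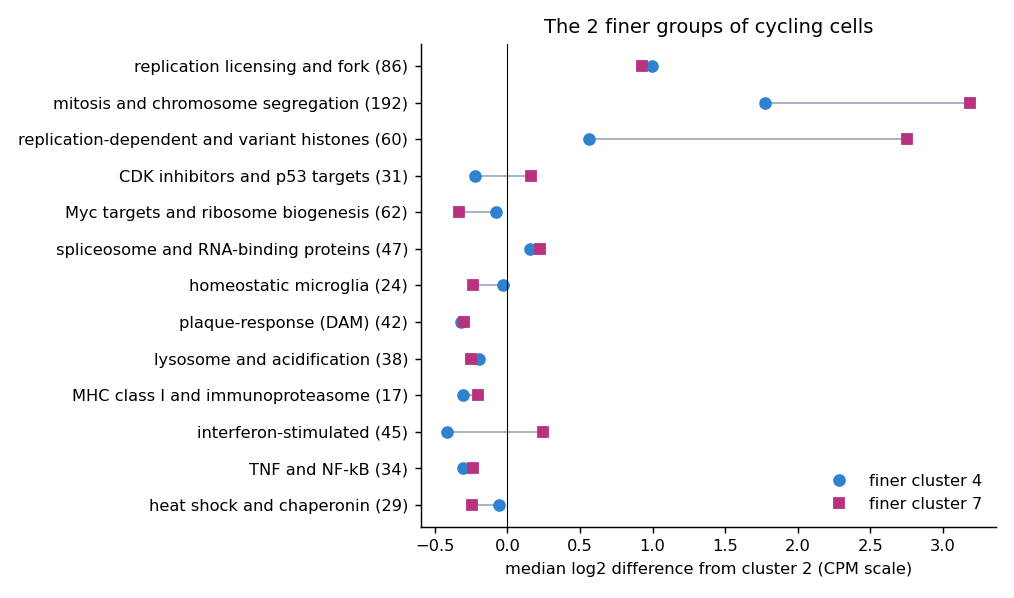
Median log2 difference from cluster 2 on the CPM scale of selected gene lists (genes tested in brackets) in finer cluster 4 (blue circles) and finer cluster 7 (purple squares), each list's pair joined by a line. Mitosis (1.78 and 3.19) and histone genes (0.56 and 2.75) lie further right in finer cluster 7, and interferon genes change sign (-0.42 and 0.24). The medians of replication genes (0.99 and 0.93) nearly coincide, while single members differed both ways.

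Between the genotypes, the composition of the cycling cells differed, while their share of both clusters did not reach the threshold. Cluster 4 made up 45.5% ± 4.37 (SD, n = 4) of the cells of both clusters in WT mice, with 41.4%, 42.2%, 48.0% and 50.3% in single mice. In AppSAA mice it made up 38.7% ± 3.03 (n = 4), with 35.2%, 37.3%, 39.9% and 42.2%. The difference of -6.84 points did not reach 0.05 (exact permutation test over mice, two-sided p = 0.0571429, smallest possible 0.0285714). Finer cluster 7 took 22.6% ± 2.13 of cluster 4 in WT mice and 32.8% ± 3.24 in AppSAA mice, 10.2 points more, and the genotypes did not overlap (exact permutation p = 0.0285714, adjusted p = 0.0428571 over 3 comparisons). The log2 ratio of UMIs per cell between the clusters was 0.21 in WT and 0.28 in AppSAA mice, and the genotypes differed by 0.070 (exact permutation p = 0.0285714, adjusted p = 0.0428571). Each pool held 1 mouse of each genotype. With the mice paired by pool, the share of finer cluster 7 and the UMI ratio were higher in AppSAA mice in 4 of 4 pools, for which the exact permutation p is 0.125, the smallest that 4 pairs allow, and the share of cluster 4 was lower in 3 of them (exact permutation p = 0.25). The genotypes share pools but not mice, and the WT mice may have differed in age.

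Few genes were called for a cluster difference that differed between the genotypes. The interaction of genotype and cluster was positive (larger in AppSAA) in 0.505% of 13063 genes (66) and negative in 0.0459% (6). Before adjustment, 1228 genes had p below 0.05 in this edgeR test, and 1245 with pool by cluster terms. Genes that were not called may still differ. The number called rests partly on single mice, with 18 and 1 called without WT replicate 2, 23 and 1 without WT replicate 3, and 3 negative without AppSAA replicate 1 or 3. With pool by cluster terms as a block, 114 (0.873%) were positive and 13 (0.0995%) negative, and these included all 72. Of the lists, immediate early genes had 7 of 25 positive, TNF and NF-kB genes 8 of 34, interferon-stimulated genes 7 of 45, histones 6 of 60 and mitosis genes 12 of 192, among 64 of 12677 genes of the main comparison. Klf2 (0.37) and Nfkbia (0.24), an inhibitor of NF-kB, were less far below 0 in AppSAA mice. Cd69 had the largest coefficient among the named genes (1.37 ± 0.25, adjusted p = 0.012). In WT mice it went from 2.42 CPM in cluster 2 to 6.29 in cluster 4, from 2.09 to 3.17, from 3.47 to 6.48 and from 3.44 to 3.77. In AppSAA mice it went from 11.7 to 42.5, from 3.05 to 20.6, from 11.2 to 29.9 and from 6.16 to 38.7 CPM, so the levels in cluster 2 of these mice were also higher in 3 of the 4 mice than in any WT mouse. Of the other named genes, those of the late cycle were the spindle-checkpoint activator Cdc20 (0.64), the kinase Aurka (0.57), its activator Tpx2 (0.41), Cdkn2d (0.50) and H2afx (0.46). Mki67 (-0.14, adjusted p = 0.79) and Top2a (0.07, adjusted p = 0.84) were not called. Of 62 positive genes with a value, 54 were also higher in finer cluster 7 than in finer cluster 4. Of all 11426 genes compared, 25.1% were higher. When finer cluster 7 alone was set against cluster 2, 3 genes were positive and 2 negative, and with finer cluster 4 alone 52 and 6. Finer cluster 7 held 163 to 468 cells a mouse and finer cluster 4 held 254 to 1309. The part of cell composition in the interaction was not tested. Aurka then had coefficients of 0.44 and 0.20 in finer clusters 4 and 7, and Tpx2 0.28 and 0.065, none of them called.

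Among the genes named for the interaction, 1 was called within both finer clusters. This was Arl5c, a small GTPase related to Golgi trafficking factors (chromosome 11, 97989575 to 97996285). It was lower in cluster 4 in all 8 mice, from 65.5 to 31.7, 72.8 to 32.2, 129.6 to 63.1 and 74.3 to 42.6 CPM in WT mice, and from 119.0 to 96.0, 83.4 to 49.4, 126.3 to 84.2 and 99.1 to 73.8 CPM in AppSAA mice. The mean log2 ratio of CPM + 0.5 was -1.01 in WT and -0.52 in AppSAA mice. Its interaction was 0.52 ± 0.07 (adjusted p = 0.00065) and was called within finer cluster 4 (0.53) and finer cluster 7 (0.64). The interferon-induced GTPase Gbp5 was lower in cluster 4 in WT (mean log2 ratio of CPM + 0.5 -0.27) and higher in AppSAA mice (0.48), with an interaction of 0.74 ± 0.11 that was called within finer cluster 4 and not within finer cluster 7. Cxcl10 had a small positive interaction (0.19 ± 0.04). The 6 negative genes were Fam20c, a Golgi kinase (-0.29), Ung (-0.29), the NF-kB adaptor Tifa (-0.21), the NAD kinase Nadk (-0.19), R3hdm2 (-0.18) and the co-chaperone Dnaja1 (-0.15).

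**Figure D5:**
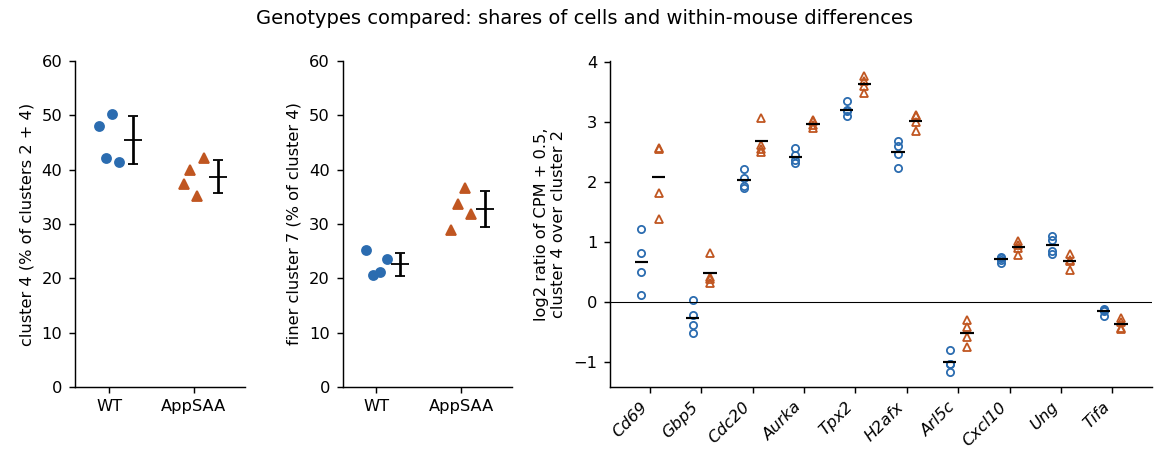
Left and middle, cluster 4 as a percentage of clusters 2 and 4 and finer cluster 7 as a percentage of cluster 4, with 1 point per mouse (blue circles WT, orange triangles AppSAA) and mean ± SD (n = 4) in black. Right, log2 ratio of CPM + 0.5 of cluster 4 over cluster 2 per mouse for 10 genes, with the mean as a bar. The finer cluster 7 share does not overlap between genotypes (22.6% and 32.8%), and Cd69 and Arl5c lie higher in AppSAA mice.

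Clusters 4 and 2 also exist, in small numbers, in AppSAA mice that were not given ATV:4D9. In the 4 mice given the isotype control (deposited as ATV-DNP02, read here as ATV:ISO) and the 4 given 4D9 without the transport vehicle, cluster 4 held 26 to 74 cells a mouse and cluster 2 held 66 to 172. Of 8406 genes, 21% were higher and 18.8% lower. Of the genes called higher under ATV:4D9 that had a value, 2283 of 2928 had the same sign in these mice, and of those called lower 2684 of 3671. The cells of these mice were assigned by the same clustering, so this agreement is partly built in and is not separate evidence. The difference between clusters depended on treatment (interaction, ATV:4D9 minus the others, in a fit of these 8 mice and the 4 AppSAA mice given ATV:4D9) in 10.2% of 9785 genes in the positive and 13.2% in the negative direction. All 12 mice of this test were AppSAA. The values under ATV:4D9 set beside the coefficients below are those of the 8 mice of both genotypes, so a coefficient is not their exact difference.

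The cycle lists differed in their interactions with treatment. Of 191 mitosis genes 116 had a negative and 10 a positive interaction. Among them were Ccnb1 with 3.83 under ATV:4D9 and 7.01 in the other mice (interaction -3.03, adjusted p = 6.2e-07), Cdk1 with 2.43 and 3.51 (-1.05) and Top2a with 3.93 and 4.84 (-0.87). Ccnb1 had a UMI in only 2.18% of cluster 2 cells under ATV:4D9. Cluster 2 of the other mice held 66 to 172 cells, so the 7.01 can rest on very few counts. Of 46 histone genes 31 were negative and the other 15 not called, and of 10 genes of deoxynucleotide synthesis 2 were positive and 2 negative. Of 86 replication genes 21 were positive and 3 negative, and the other 62 were not called. Pcna was at 1.19 and 0.74 (0.46, adjusted p = 0.003) and Mcm5 at 0.68 and 0.23 (0.45). Myc, Ccnd1 and Tfrc, of the panel, had positive interactions. Myc was at -0.20 and -1.11 (0.94), Ccnd1 at -0.15 and -0.98 (0.80), Tfrc at 0.06 and -0.84 (0.86), and 37 of 62 Myc targets and ribosome biogenesis genes had a positive interaction and 1 a negative one. Nuclear genes of oxidative phosphorylation did the reverse, with 54 of 73 negative and the rest not called. Their median difference was -0.07 under ATV:4D9 and 0.25 in the other mice. The plaque-response list was at -0.31 and 0.06, with 26 of 40 negative and 3 positive. Within it, Spp1 was at -0.59 and 1.02 (-2.13, adjusted p = 0.0009), Apoe at -0.39 and 0.17 (-0.63), Tyrobp at -0.26 and 0.23 (-0.48) and Trem2 at -0.19 and 0.06 (-0.24). P2ry12 was at -0.05 and -0.34 (0.29). The lysosome list was lower in both, at -0.21 and -0.17. Cdkn1a was higher in both, at 1.27 and 1.56 (-0.22, adjusted p = 0.34).

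Markers of other cell types were scarce in both clusters, although none of those listed was at 0 in every sum. Markers of border-associated macrophages took 0.00114% to 0.0071% of UMIs in cluster 4 and 0.0012% to 0.00315% in cluster 2, and 5 of 8 were called higher and the other 3 not called, such as Mrc1 with 7.77 against 4.06 CPM. In finer cluster 7, the 6 of them with a value were all higher than in finer cluster 4 (median difference 1.27). Between cluster 4 and cluster 2, the median of the list was 0.18 in WT and 0.84 in AppSAA mice, and -0.35 to 1.48 in single mice. Monocyte and neutrophil markers took 0.000794% to 0.00359% in cluster 4 and 0.000973% to 0.00278% in cluster 2, with 1 of 5 tested lower, the gene Plac8 (-0.69). The only lymphocyte marker tested, Cd79b, was higher (0.13), with the list at 0.00181% to 0.00278% and 0.00162% to 0.00241%. Of astrocyte markers 2 of 4 and of oligodendrocyte markers 2 of 5 were lower, at up to 0.00747% and 0.00609% in cluster 4 and 0.00944% and 0.00641% in cluster 2. Of endothelial markers 2 of 3 were higher and 1 lower, at up to 0.00214% and 0.00186%. Among all tested genes 32.7% were higher and 35.9% lower. The astrocyte, oligodendrocyte and endothelial counts, of so few genes, are therefore no result about these markers. Neuron markers reached 0.000166% and 0.000118%, and none passed the filter on low counts. Their part in the differences between the clusters was not tested.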

How the data were processed

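Single-cell RNA-seq (10x Chromium 3′ kit with CellPlex tags) was run on 4 pools of brain myeloid cells. The authors deposited 1 matrix of UMI counts per gene and cell, without normalization, and an annotation with each cell's mouse, group, UMI total, mitochondrial percentage (percent of UMIs, computed by the authors) and clusters at a coarser and a finer resolution. Per the labels and methods, reads were aligned to mm10 with Cell Ranger 6.1.1, and cells were integrated and clustered with Seurat. Cell filters and doublet removal are not given in the sources used here, and every deposited cell was kept. The counts of all 74758 cells sum to the annotated total.

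UMIs were summed per mouse and cluster. Sums entered edgeR 4.0.16 in R 4.3.3 (filterByExpr, TMM, quasi-likelihood test, Benjamini-Hochberg over all genes tested, called at 0.05) with a term for each mouse, since both sums come from the same animal. The genotype and treatment interactions kept that term. Each mouse is a separate animal. The finer clusters entered 1 fit with cluster 2. Printed CPM and counts of mice use the plain total, log2 differences and calls the TMM-scaled one, as did the rule of 1 sign in 8 mice. UMIs per cell used the number of cells as the library size, with no TMM factor. SE is the fold change divided by the square root of F. Thinning drew 5000 UMIs per cell (477 cells of cluster 2 and 95 of cluster 4 were shallower and left out). Shares and depths were compared by exact permutation over mice with scipy 1.17.1 (Python 3.11.15). The paired and interaction fits were tested on simulated data.

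Named genes were the 10 called genes with the largest positive and negative difference at a mean of 10 CPM or more and 1 sign in 8 mice, 15 each outside the cycle, the 2 highest, 2 lowest and 2 most abundant of each list, a fixed panel of 22 genes and the 10 largest interaction coefficients each way. Of 611 Reactome cycle identifiers 600 matched a gene. The cells, lists and panel were chosen with earlier results of these data known. DESeq2 1.42.0, limma-voom (limma 3.58.1), RLE scaling, no filter, left-out mice, single genotypes, thinned and depth-matched cells, other divisions of the cells and no mouse term were alternatives. The UMIs-per-cell scale, the division without histones, the finer clusters in the genotype test, the pairing by pool and the alternatives of the treatment test were chosen after seeing the data.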

Additional observations from a re-analysis of the deposited data

Results flagged for a closer look

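In 5 of 68 groups of mice tested, 1 mouse stood apart from the rest by its gap to the nearest value. About 1 in 20 groups does so by chance. An AppSAA mouse had a log2 ratio of median UMIs per cell of 0.33 between cluster 4 and cluster 2, where the other 3 had 0.27. Over the 8 mice, on the scale of log2 ratios of CPM + 0.5, single mice stood apart at 5.36 for Hist1h3c, -1.83 for Lgals3, -0.13 for P2ry12 and -0.62 for Cd74.

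Several effects differed between the genotypes by a test of the difference itself. The log2 ratio of UMIs per cell was larger in AppSAA mice by 0.070, and finer cluster 7 took 10.2 points more of cluster 4. Paired by pool, neither can fall below an exact permutation p of 0.125. The genotype by cluster interaction was positive in 66 and negative in 6 genes. Those named for it or on the panel were Cd69 (1.37), Gbp5 (0.74), Cdc20 (0.64), Hist2h2ac (0.58), Aurka (0.57), Arl5c (0.52), Cdkn2d (0.50), H2afx (0.46), Tpx2 (0.41), Med21 (0.40), Cxcl10 (0.19), Fam20c (-0.29), Ung (-0.29), Tifa (-0.21), Nadk (-0.19), R3hdm2 (-0.18) and Dnaja1 (-0.15). Other named genes with a called interaction were Klf2 (0.37), Ifitm3 (0.29), Atf3 (0.24), Nfkbia (0.24), H3f3b (0.23), Btg2 (0.23), H2afz (0.19) and Ccl12 (0.18).

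The treatment by cluster interaction was positive in 1000 and negative in 1293 genes. Of the panel genes it was called for Myc (0.94), Tfrc (0.86), Ccnd1 (0.80), Pcna (0.46), Mcm5 (0.45), P2ry12 (0.29), Trem2 (-0.24), Tyrobp (-0.48), Apoe (-0.63), Top2a (-0.87), Cdk1 (-1.05), Spp1 (-2.13) and Ccnb1 (-3.03). Cluster 4 of the mice not given ATV:4D9 rested on 26 to 74 cells a mouse and cluster 2 on 66 to 172, which limits scarce genes such as Ccnb1.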

How the results depend on the processing

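The 4150 higher and 4550 lower calls both stayed within 1.5 times under 20 of 22 alternatives, with 3923 to 4119 higher and 4347 to 4494 lower when 1 mouse was left out. Without the mouse as a replicate block, 2355 genes were lower and 2823 higher, and 70 single named genes lost their call. On the scale of UMIs per cell the counts were 9287 and 627. Gene directions turned when cells were divided by their share of cycle UMIs, to 0.24 for Hist1h2bc, 0.51 for H3f3b, 0.19 for Klf2, 0.24 for Btg2, 0.19 for Nfkbia and 0.39 for Jun. Without histones in that share, H3f3b was at 0.053 and Jun at 0.047. In AppSAA mice alone they were at 0.043 and 0.014, and P2ry12 was at 0.015 in cells of 10000 to 25000 UMIs thinned to 10000. The cause was not tested. The genotype interaction was positive in 18 to 82 genes and negative in 1 to 6 when 1 mouse was left out. It was negative in 2 with RLE scaling, and 3 and 2 were called in finer cluster 7 alone, which holds fewer cells. With pool by cluster terms as a replicate block it was positive in 114 and negative in 13, an alternative chosen after seeing the data. The treatment interaction gave 780 to 1091 positive and 1064 to 1280 negative genes without 1 mouse. The share difference ran from -8.20 to -5.23 points and the log2 UMI ratio from 0.24 to 0.26.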
